A study of Sus scrofa with 8 samples.

Results

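ZIC4+ dorsal mesenchyme was defined by a gate on the UMI counts of each barcode, UMIs being the molecular tags that count single captured transcripts. A barcode entered when it carried at least 1 UMI of ZIC4, at least 1 of COL1A2 and at least 1 of CLDN11, NPY or MAB21L2, with PAX6, HES5, SOX10, MYF5, TNMD, MATN4 and ACAN all at 0. Of 82394 barcodes kept after the quality limits, 2206 met the rule (2.68%). The single-cell series sampled pig embryos at 4 stages, with the somite at E16, E18 and E21 and the myotome at E28. At each stage there was 1 library of Tibetan pigs (ZZ) and 1 of Duroc × Tibetan pigs (DZ), and each library was a pool of 5 embryos from a single sow. Libraries were the units compared, all 8 for the shares and at most 6 for the genes. With 1 pool per stage and breed, the p-values do not measure the spread between like pools or between embryos. The gene fits of stage and breed left 2 residual degrees of freedom. Their error is what stage and breed as separate terms did not take up, with information shared across genes. Stage and tissue could not be told apart at E28, nor could stage and Cell Ranger version at E16.

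Zic proteins are zinc-finger transcription factors that are best known from the dorsal neural tube and from the dorsal part of the somite. The somite gives rise to the sclerotome, which forms vertebrae, and to the dermomyotome, which gives muscle and dermis of the back. Mesenchyme over the neural tube lies next to BMP and WNT signals of the roof plate and the surface ectoderm. Of the genes in the gate, CLDN11 encodes a tight-junction claudin, NPY encodes neuropeptide Y, MAB21L2 is a developmental regulator of the Mab21 family and COL1A2 encodes a chain of type I collagen. The 7 genes set to 0 mark neural progenitors (PAX6, HES5), neural crest and glia (SOX10), muscle precursors (MYF5), tendon (TNMD) and cartilage (MATN4, ACAN).

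ZIC4 and its neighbour ZIC1 lie head to head on pig chromosome 13. In RefSeq's annotation of Sscrofa11.1, ZIC4 spans chr13:87725642-87740724 on the minus strand and ZIC1 spans chr13:87740769-87750258 on the plus strand. The 44 bases between both gene starts are shown because the pair was measured side by side in these cells. They lie at chr13:87740725-87740768 and are written on the plus strand with CpG dinucleotides in capitals.

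ZIC4-ZIC1 interval: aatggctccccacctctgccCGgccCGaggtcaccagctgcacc

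The interval held 2 CpG dinucleotides and 70.5% G and C. ZIC2 and ZIC5 form a second pair on chromosome 11.

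The libraries held between 47651997 and 66696834 UMIs in kept barcodes, and the members together held 10912731. In the E16-ZZ library 39.2% of barcodes exceeded the limit of 10% mitochondrial UMIs, against 1.05% to 9.15% in the other 7. The median depth of members was 9389 UMIs (ZZ) and 4913.5 (DZ) in the E16 libraries, 7142 and 6526 in those of E18, 3956 and 5021 in those of E21, and 4019 and 3716 in those of E28. Members were deeper in median than the ZIC4-negative comparison cells in every library but E16-DZ. Pairs of libraries shared 17 to 48 kept barcode sequences, and 1 barcode sequence occurred among the members of both E21-ZZ and E28-DZ.

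The gate is a threshold on sparse counts. Of 8454 ZIC4+ barcodes, 6811 also carried COL1A2, 3471 of these carried CLDN11, NPY or MAB21L2, and 2206 also had the 7 excluded genes at 0. Just inside the threshold, 1100 members (49.9%) held exactly 1 ZIC4 UMI, 305 held 1 COL1A2 UMI and 675 held 1 UMI in all of CLDN11, NPY and MAB21L2. Just outside it, 1902 barcodes failed only for lack of CLDN11, NPY and MAB21L2, 465 failed only on MATN4, 354 only on COL1A2, 216 only on TNMD and 209 only on MYF5. HES5 alone kept out 49 barcodes, SOX10 34, ACAN 18 and PAX6 14. In E28-DZ 385 of the 517 members held a single ZIC4 UMI.

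Free RNA can place such UMIs in cells that do not express a gene. ZIC4 was counted in 0.37% to 10.0% of endothelial cells and in at most 10.5% of erythroid cells, depending on the library, and COL1A2 in 14.8% to 50% of endothelial cells. The full gate was met by at most 1 cell of each kind per library, and only at E21 and E28. These were 1 of 40 endothelial and 1 of 70 erythroid cells in E21-DZ. The others were 1 of 68 endothelial cells in E28-ZZ and 1 of 83 erythroid cells in E28-DZ. By stage, ZZ first, ZIC4 was counted in 0.37% and 0.43% of endothelial cells at E16 and in 1.38% and 1.40% at E18. The later values were 1.23% and 10.0% at E21 and 8.82% and 3.23% at E28. The part of free RNA in the share of members was not tested. The label of mesenchyme was checked on 20 measured genes of mesenchyme and fibrillar matrix that the rule did not use. At least 2 of them were detected in 97.9% to 100% of members in each library from E18 on, and in 95.7% to 99.3% of ZIC4-negative mesenchymal cells, so the check tells both groups apart little. Their summed level was 36.1 to 163 UMIs per 10000 in members and 34.2 to 145 in ZIC4-negative cells. FOXC1 and FOXC2, forkhead genes of paraxial mesoderm and meningeal mesenchyme alike, lay between 0 and 0.847 CPM (UMIs of a gene in every 1000000 UMIs) in members and between 0 and 1.17 in ZIC4-negative cells, too low in both to serve as markers. The meningeal list as a whole summed to 17.0 to 23.7 per 10000 in members against 19.1 to 25.2 in ZIC4-negative cells. LMX1A, a gene of the roof plate, was found in 3 of 48 members of E18-ZZ and 9 of 101 of E18-DZ, so that the mesenchymal identity of some E18 members is unsure. The dorsal position in the name rests on the gate genes alone.

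The members were few at E16 and E18 and many at E21 and E28. In E16-ZZ 9 of 6297 kept barcodes were members (0.143%, exact 95% interval 0.0654 to 0.271), and in E16-DZ 8 of 10603 (0.0755%, 0.0326 to 0.149). The E18 libraries held 48 members in ZZ (0.466%, 0.344 to 0.617) and 101 in DZ (0.976%, 0.796 to 1.18). All 4 of these early shares were under 1%. At E21 the members numbered 676 in ZZ (5.82%, 5.40 to 6.26) and 429 in DZ (4.21%, 3.83 to 4.62). At E28 they numbered 418 in ZZ (3.85%, 3.49 to 4.22) and 517 in DZ (4.25%, 3.90 to 4.62). The lowest late share lay above the highest early share, and the intervals cover counting error only. The mean share was 0.415% ± 0.411 (SD, n = 4) in the E16 and E18 libraries and 4.53% ± 0.880 (SD, n = 4) in the E21 and E28 libraries. The difference of 4.12 percentage points had p = 0.0286 in an exact two-sided permutation test, the smallest p that 4 against 4 libraries allow.

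Detection of ZIC4, which every member must carry, changed in the same way and is no separate support. It went from 0.921% and 0.915% of kept barcodes at E16 and 3.43% and 4.91% at E18 to 18.0% and 15.0% at E21 and 16.6% and 16.5% at E28, each ZZ first. Late cells were shallower, so the shares were also taken after thinning each barcode to 2000 UMIs. They were then 0%, 0.0218%, 0.0792%, 0.183%, 3.58%, 1.87%, 2.18% and 2.19% from E16-ZZ to E28-DZ, and again all 4 late libraries lay above all 4 early ones (p = 0.0286, exact permutation). When at least 2 ZIC4 UMIs were required, the shares were 3.79% and 2.56% at E21 and 1.87% and 1.08% at E28, and the difference between late and early libraries was 2.15 percentage points (p = 0.0286, exact permutation). The thinned 0 at E16-ZZ came from 6081 barcodes, which allows a share of up to 0.0493% at 3 counts, and the exact 95% interval, which is two-sided, ends at 0.0606%. Between breeds the share did not differ beyond the spread. DZ minus ZZ was -0.193 percentage points (2.38% against 2.57%, p = 0.875, exact permutation within stages), and 4 pairs cannot give a p below 0.125.

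**Figure D1:**
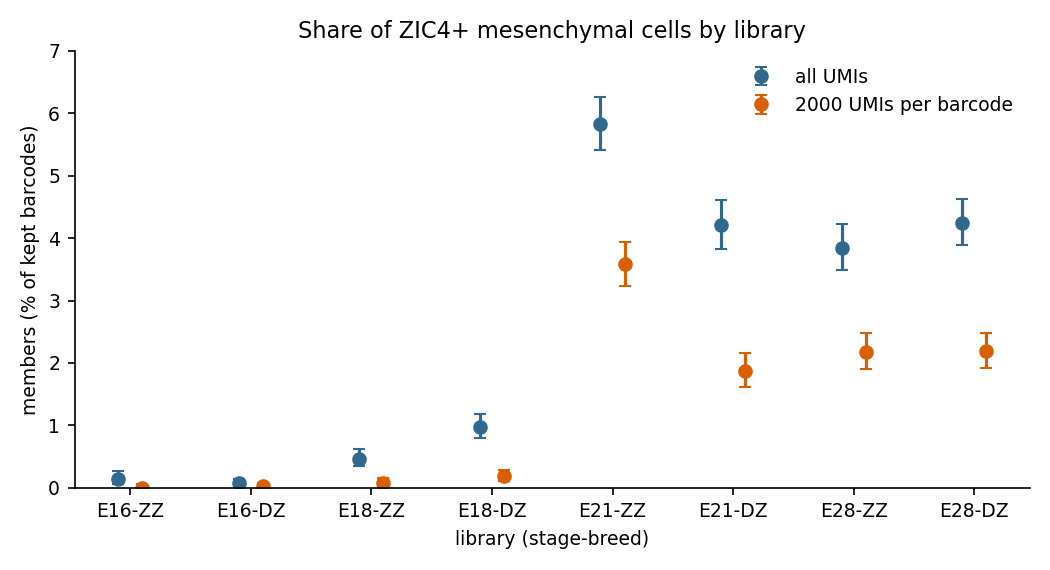
Share of kept barcodes in each of the 8 libraries that met the rule for ZIC4+ dorsal mesenchyme, in percent, from all UMIs and after thinning each barcode to 2000 UMIs, with exact 95% intervals as bars. The 4 libraries of E16 and E18 lie below 1% and the 4 of E21 and E28 between 3.85% and 5.82% when all UMIs are used.

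The genes that chose the members were not detected evenly over the stages, and their values are given as a description. Detection means at least 1 UMI in a cell. At E18 the gate was met mainly through NPY, which was detected in 70.8% of members in ZZ and 94.1% in DZ. NPY was then detected in 80.9% and 62.2% of members at E21, and in 9.33% and 3.87% at E28. Thus NPY was the commonest of the 3 alternative genes up to E21 and the rarest at E28. CLDN11 was detected in 29.2% and 3.96% of members at E18, in 57.7% and 55.2% at E21 and in 58.9% and 61.3% at E28. MAB21L2 was detected in 10.4% and 4.95% of members at E18, in 49.1% and 47.1% at E21 and in 62.4% and 52.2% at E28. Of the members with CLDN11, NPY was also found in 79.0% and 57.4% at E21 and in 8.54% and 3.15% at E28. Among all kept barcodes NPY was detected in 2.50% and 6.92% at E18, in 16.6% and 11.3% at E21 and in 3.98% and 4.58% at E28.

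**Figure D2:**
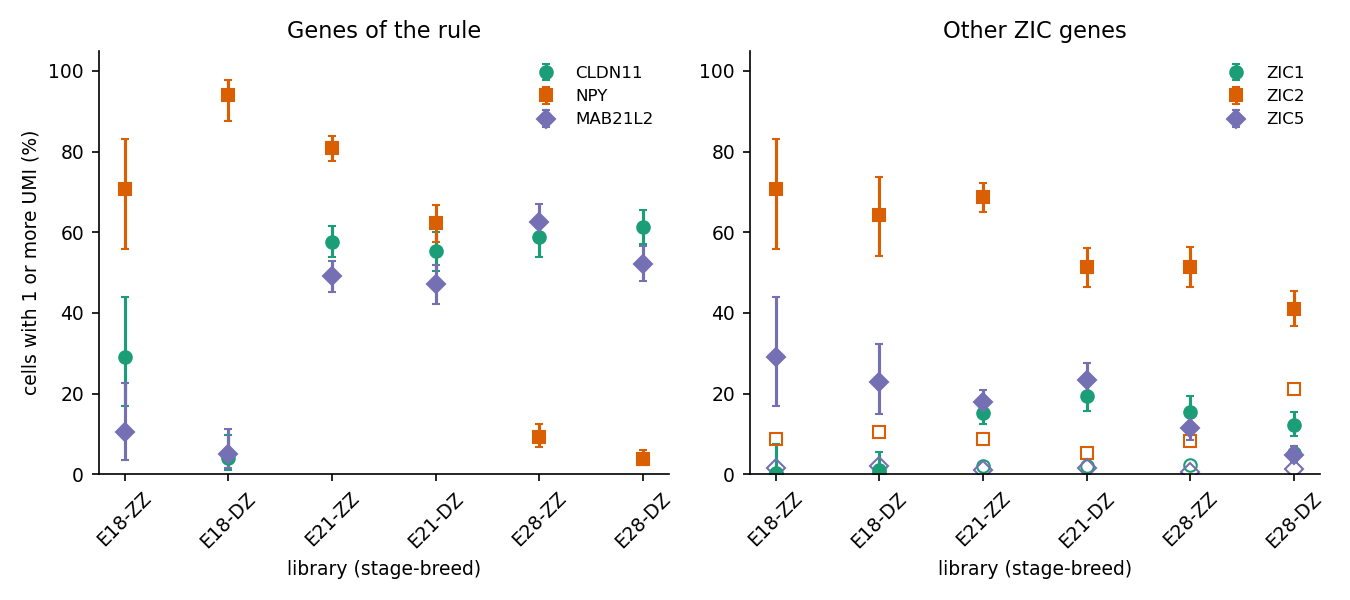
Share of members in percent with at least 1 UMI of a gene of the rule (left) or of another Zic gene (right), by library from E18 to E28, with exact 95% intervals as bars and open symbols for ZIC4-negative mesenchymal cells. NPY falls from between 62.2% and 94.1% at E18 and E21 to 9.33% and 3.87% at E28, and ZIC2 lies between 41.0% and 70.8% in members of every library.

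Over all libraries, 522 members carried CLDN11 as the sole gene of the 3, 361 carried NPY alone, 463 carried MAB21L2 alone, 624 carried a pair and 236 carried all 3. Of the NPY-only members, 11 were in E28-ZZ and 4 in E28-DZ.

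To see what else set these cells apart, members were compared with 24881 other barcodes of the same libraries. These carried COL1A2 and had ZIC4, CLDN11, NPY, MAB21L2 and the 7 excluded genes at 0. They are called ZIC4-negative mesenchymal cells, but COL1A2 alone selects mesenchyme loosely. It was detected in 54.0% of all kept barcodes of E18-ZZ, 92.0% of E28-ZZ and 88.4% of E28-DZ. UMIs were summed per library and tested with edgeR's quasi-likelihood test with the library as a block, in the 6 libraries of E18, E21 and E28 that held at least 20 members. Of 12800 genes tested, 893 passed an adjusted p of 0.05 (6.98%), of which 345 were higher in members (2.7%) and 548 were lower (4.28%). Without E21-DZ 439 genes passed, without E21-ZZ 475 and without E28-ZZ 551. Without both E18 libraries 920 of 12460 passed (7.38%), 443 higher (3.56%) and 477 lower (3.83%). The 12 genes of the rule were left out of the test. Levels below are CPM of these sums ordered by stage from E18 to E28, ZZ before DZ at each stage, and differences are log2 fold changes ± SE with Benjamini-Hochberg adjusted p over all genes tested.

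ZIC2, ZIC5 and ZIC1 were higher in members. ZIC2 measured 236, 235, 330, 164, 191 and 127 CPM in members and 19.3, 26.8, 31.7, 15.5, 27.7 and 75.7 in ZIC4-negative cells. The groups did not overlap, with a difference of 2.82 ± 0.30 over the 6 libraries (adjusted p = 0.000212). The gap was narrowest in E28-DZ. ZIC2 was detected in 41.0% to 70.8% of members per library and in 5.34% to 21.2% of ZIC4-negative cells. ZIC5, its neighbour on chromosome 11, measured 45.1, 46.0, 45.8, 45.8, 26.7 and 10.4 CPM in members and 1.27 to 4.00 in ZIC4-negative cells (3.61 ± 0.28, adjusted p = 3.11e-05). ZIC1, the head-to-head neighbour of ZIC4, measured 0, 1.28, 36.0, 41.1, 32.7 and 27.9 CPM in members and 0.306, 0.705, 4.73, 5.00, 5.99 and 14.1 in ZIC4-negative cells (2.30 ± 0.29, adjusted p = 0.000653). At E18 ZIC1 was thus almost absent from cells selected for ZIC4, with 1 UMI in all, and it was higher than in ZIC4-negative cells in the other 5 libraries. All 3 were also higher in members than in LUM+ OGN-negative cells and than in PAX1+ cells, the 2 other mesenchymal populations compared below.

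Among the higher genes that the rule for named genes gave, MSX1 and HOXD1 had the largest differences. MSX1 encodes a homeodomain factor that responds to BMP and marks dorsal tissue. It measured 66.3, 102, 113, 64.8, 74.7 and 2.79 CPM in members against 24.1, 26.7, 3.66, 4.54, 0.564 and 0.0854 in ZIC4-negative cells (3.53 ± 0.51, adjusted p = 0.00164). MSX1 was higher in members in 6 of 6 libraries, but its level in E28-DZ members was far below that of the other 5. It was detected in 30.0% of members against 1.28% of ZIC4-negative cells in E21-ZZ, in 22.2% against 0.199% in E28-ZZ and in 0.967% against 0.0327% in E28-DZ. HOXD1, the most 3′ gene of the HOXD cluster, measured 39.8, 26.8, 156, 83.9, 75.7 and 24.7 CPM in members against 11.9, 9.69, 4.81, 2.21, 4.23 and 5.89 (3.50 ± 0.46, adjusted p = 0.000894). The HOXD1 groups did not overlap, and the gene was detected in 40.7% of E21-ZZ members against 1.82% of ZIC4-negative cells.

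Several cell-surface genes were higher in members in every library. ALCAM, an adhesion molecule, measured 82.2, 147, 122, 96.2, 75.7 and 37.8 CPM in members against 18.8 to 28.2 in ZIC4-negative cells (1.91 ± 0.18, adjusted p = 0.000107). The ephrin receptors EPHA7 (1.42 ± 0.14, adjusted p = 0.000175) and EPHA3 (1.41 ± 0.23, adjusted p = 0.00324) and the Hedgehog co-receptor BOC (0.93 ± 0.11, adjusted p = 0.000600) were higher as well. AKAP12 (1.00), PCCA (0.98), THBS4 (0.94) and the lysyl oxidase LOXL1 (1.10 ± 0.28, adjusted p = 0.0310) were also among the higher genes that the rule for named genes gave. LOXL1 missed the threshold without E18-ZZ, E18-DZ, E21-ZZ or E21-DZ (adjusted p 0.0663 to 0.0861) and with DESeq2 (0.0805).

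Genes of the signalling lists differed as well. Of 23 tested genes of the BMP and TGF-β list, 8 were higher in members and 1 was lower, and the median log2 difference was 0.41 against -0.02 over all genes tested. The higher genes were the ligands BMP4, BMP5, BMP6 and BMP7, the antagonist NOG, the target genes ID3 and ID4, and TGFBI. BMP4 measured 84.8, 57.4, 225, 157, 198 and 74.1 CPM in members against 67.9, 57.0, 43.1, 41.6, 59.6 and 52.2 (1.34 ± 0.26, adjusted p = 0.00869). The 2 E18 libraries thus had close values in both groups, and both E21 libraries and E28-ZZ carried the gap. In E28-DZ the gap was small. ID3 measured 477, 386, 871, 630, 433 and 511 CPM in members against 322 to 416 in ZIC4-negative cells. The lower gene was TGFB1.

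Of 26 tested WNT genes, 4 were higher (DKK1, WIF1, AXIN2 and NKD1) and 4 lower (WNT2, WNT5A, SFRP1 and RSPO2). Among the higher genes, AXIN2 and NKD1 are feedback targets of WNT signalling, and DKK1 and WIF1 encode secreted inhibitors. NKD1 measured 162, 129, 98.4, 108, 67.8 and 11.9 CPM in members against 38.5, 40.9, 46.1, 52.8, 61.1 and 6.15 (1.13 ± 0.18, adjusted p = 0.00250). WLS, which carries WNT ligands to the cell surface, was also higher (1.12 ± 0.18, adjusted p = 0.00280). Of 9 Hedgehog genes GLI3 and BOC were higher and none lower. Of 14 retinoic acid genes 1 was higher and 2 were lower, ALDH1A3 and CRABP1.

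Matrix genes went both ways. Of 20 tested genes of the mesenchyme and fibrillar matrix list, COL1A1, COL12A1, FBN2 and PRRX1 were higher in members and DCN and LUM were lower, with a list median of -0.04. LUM, the proteoglycan lumican, measured 10.6, 11.5, 85.0, 126, 428 and 270 CPM in members against 27.3, 36.3, 499, 554, 1267 and 434 (-1.68 ± 0.20, adjusted p = 0.000552). LUM was detected in 12.6% of E21-ZZ members and 51.3% of ZIC4-negative cells, and the shares were nearer at E28-DZ (39.8% and 43.2%). DCN, the related decorin, measured 7.95, 39.6, 30.2, 44.5, 215 and 424 CPM against 45.8, 44.9, 257, 276, 515 and 440 (-1.48 ± 0.35, adjusted p = 0.0235). The DCN difference missed the threshold when E18-ZZ, E21-ZZ, E21-DZ or E28-ZZ was left out (adjusted p 0.0553 to 0.106). GPC3, a cell-surface heparan sulfate proteoglycan, measured 143.1, 51.1, 23.4, 39.8, 79.2 and 128 CPM in members against 382, 268, 189, 255, 364 and 232 (-2.03 ± 0.22, adjusted p = 0.000287). OGN lay at nearly the same level in both groups in every library, for example 1074 against 1007 CPM in E28-ZZ. COL3A1 did not pass the test (-0.05 ± 0.08, adjusted p = 0.807).

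Within the somite lists, the higher genes of sclerotome and vertebral arch were SOX9, MSX1 and BMP4 and the lower ones PAX1 and UNCX, of 12 tested. Of 12 dermomyotome and dorsal dermis genes MSX1 was higher, and EN1 and SIM1 were lower. Of 9 cartilage genes COL2A1, COL9A1, COL11A1 and SOX9 were higher and SOX6 was lower, although ACAN and MATN4 were held at 0 in both groups. FMOD and THBS4 of 7 tendon genes were higher and KERA was lower. Of 14 meningeal genes none was higher, and IGFBP2 and SERPINE2 were lower. None of 13 mitosis and 11 DNA replication genes passed the test in either direction.

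Among relatives of the gate genes, the endothelial claudin CLDN5 (-1.67) and the epithelial claudins CLDN6 (-1.30) and CLDN7 (-2.81) were lower in members, and TJP1, a junction scaffold, was higher (0.32 ± 0.08, adjusted p = 0.0246). CLDN1 (0.83 ± 0.35, adjusted p = 0.209), OCLN (0.08 ± 0.71, adjusted p = 0.990), NPY1R (0.09 ± 0.27, adjusted p = 0.930) and the NPY-cleaving peptidase DPP4 (-1.40 ± 0.63, adjusted p = 0.241) did not pass the test.

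Genes of several other cell types were lower in members. All 8 endothelial genes were lower, as were 5 of 6 epithelial, 4 of 7 erythroid, 4 of 7 macrophage, 6 of 10 skeletal muscle, 4 of 8 neuronal and 2 of 8 neural crest genes, with none higher. Of 4 neural tube genes tested none passed. The summed levels per 10000 UMIs were 0.493 to 1.13 in members and 1.24 to 3.07 in ZIC4-negative cells for endothelial genes, and 1.45 to 11.5 against 15.4 to 46.7 for erythroid genes. Skeletal muscle genes summed to 2.12 and 2.76 in members against 1.81 and 1.70 at E18, where members were higher, and to 2.23 to 3.63 against 8.72 to 42.0 later. Neural crest genes summed to 7.10 to 12.6 against 7.38 to 12.0, with members higher in E18-ZZ and both E21 libraries, and epithelial genes to 0.0309 to 14.3 against 0.0942 to 25.9. HBZ and HBE1, the embryonic globins, were the lowest named genes at -3.82 and -3.64, and others were KRT8 (-1.70), PLVAP (-1.64), KRT18 (-1.63), GYG1 (-1.63) and APOA1 (-1.04). KRT8 and APOA1 each missed the threshold in 4 of the 6 fits that left out 1 library (adjusted p 0.0604 to 0.0892) and with DESeq2 (0.0795 and 0.149), and KRT18 did without E18-ZZ (0.0794). The part of cells of these other kinds in the gene differences was not tested.

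**Figure D3:**
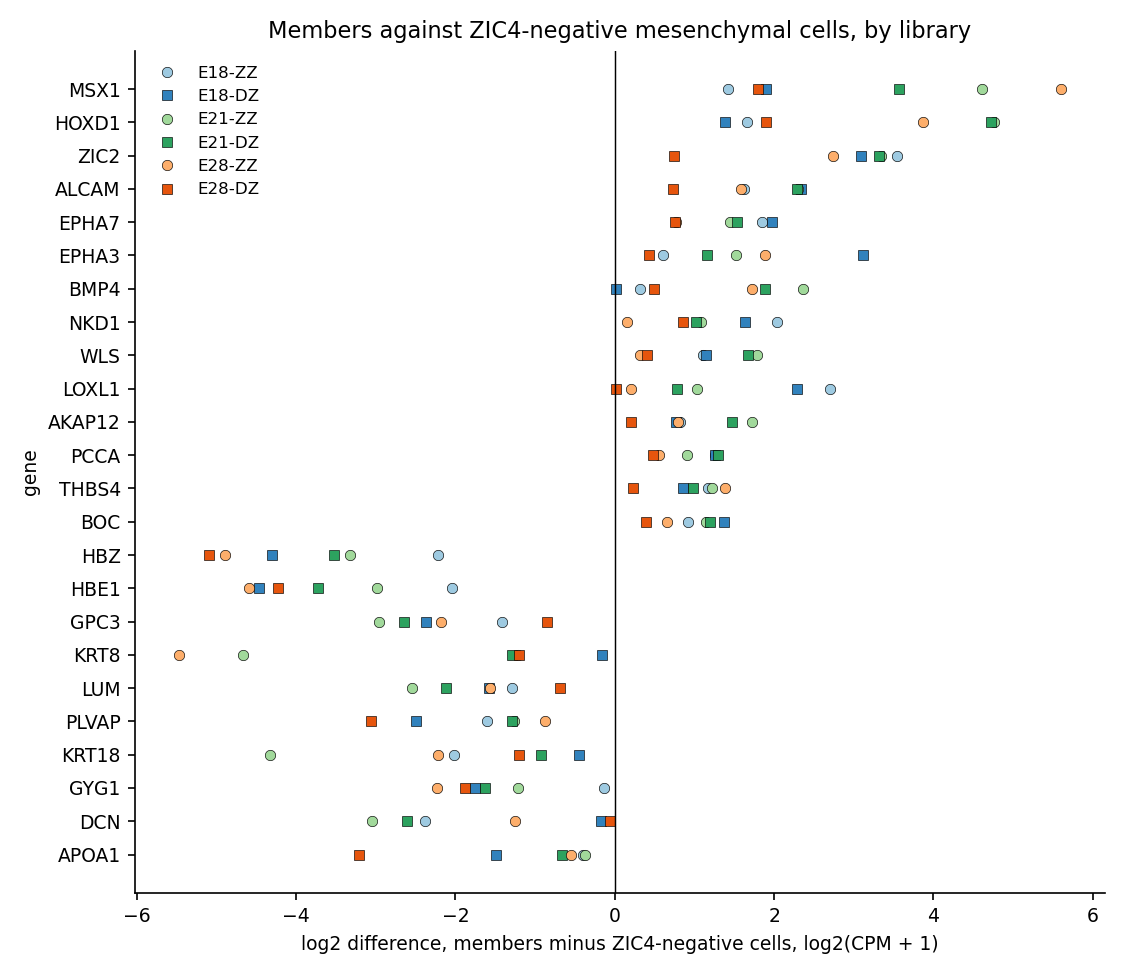
Difference between members and ZIC4-negative mesenchymal cells of the same library for the named genes, as log2(CPM + 1) of members minus that of ZIC4-negative cells, with 1 point for each of the 6 libraries. All 6 points lie above 0 for ZIC2, MSX1 and HOXD1 and below 0 for LUM and GPC3, and E28-DZ has the smallest ZIC2 difference at 0.74.

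The comparison was repeated against smaller populations chosen by further genes. These carried COL1A2 and had ZIC4 and the 7 excluded genes at 0. Unlike the ZIC4-negative cells above, they could carry CLDN11, NPY or MAB21L2. Against 6787 LUM+ OGN-negative mesenchymal cells 296 of 11304 genes passed (2.62%, with 1.18% higher and 1.44% lower), and against 3269 PAX1+ cells, whose gate gene marks the sclerotome, 544 of 10831 passed (5.02%, with 2.9% higher and 2.12% lower). Of the 24 genes named above for the first comparison, 17 were also called in the same direction against PAX1+ cells. Against LUM+ cells 13 of 23 were, leaving out LUM, which chose those cells. HOXD1, ALCAM and EPHA7 were among those called in both. MSX1 (2.40, adjusted p = 0.154), BMP4 (0.95, adjusted p = 0.389) and NKD1 (0.16, adjusted p = 0.803) did not pass against LUM+ cells, and no gene of the BMP list was higher there. Against PAX1+ cells, LUM did not differ beyond its error (-0.24, adjusted p = 0.734). KRT8 was higher in members than in PAX1+ cells (0.74, adjusted p = 0.0302), the opposite of its difference from all ZIC4-negative cells. Relative to PAX1+ cells 5 of 12 dermomyotome genes were higher (PAX3, PAX7, DMRT2, LEF1 and MSX1), the Hedgehog targets PTCH1, GLI1 and HHIP were lower, and 8 of 13 mitosis genes were lower.

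Within members, the 4 late libraries were compared with the 2 of E18, since those of E16 held too few cells for sums. Of 10350 genes 1255 passed (12.1%), with 673 higher at E21 and E28 (6.5%) and 582 lower (5.62%). Without E18-DZ 333 genes passed and without E18-ZZ 605. The step from E18 to E21 alone gave 495 genes (4.78%), 311 higher (3%) and 184 lower (1.78%). The stages also differed in the gene that let members in. NPY was the sole one of the 3 alternative genes in 30 of 48 members of E18-ZZ and 92 of 101 of E18-DZ. Such cells were 81 of 429 members in E21-DZ, 11 of 418 in E28-ZZ and 4 of 517 in E28-DZ. The part of this shift in the stage differences, E28 against E21 included, was not tested. HOX genes were 4 of the 8 that the rule named as higher. HOXC9 had no UMI in 1159723 UMIs of E18 members and measured 43.2, 97.9, 196 and 108 CPM in the late libraries, which was at least 41.6-fold higher when the floor was set at 3 counts over the E18 group. HOXA9 had 1 UMI at E18 and measured 52.9, 64.8, 140 and 87.2 CPM later (ratio 98.9, counting interval 17.7 to 3906). HOXC8 measured 13.3 and 3.83 CPM at E18 and 136, 203, 427 and 361 later (5.28 ± 0.39, adjusted p = 7.06e-06), and HOXA7 measured 10.6 and 0 at E18 and 114 to 214 later (5.42 ± 0.49, adjusted p = 3.23e-05). Of 24 HOX genes tested, 14 were higher late and 1 was lower. Any of the HOX genes of paralogue groups 6 to 9 was detected in 27.1% and 12.9% of members at E18, in 68.0% and 88.6% at E21 and in 97.8% and 93.2% at E28.

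Much of this HOX difference was shared with the ZIC4-negative cells of the same libraries. In those cells the same paralogue groups were detected in 54.7% and 22.6% at E18 and in 67.1% to 91.7% later. HOXC8, for example, measured 53.8 and 8.98 CPM in ZIC4-negative cells at E18 and 131 to 271 later. This was less so for paralogue group 9, where E18-ZZ lay within the later range. In ZIC4-negative cells that group summed to 157 and 176 CPM at E16, 174 and 52.8 at E18 and 148 to 280 later. When the change in members was tested against the change in ZIC4-negative cells, 63 of 12800 genes passed (0.492%), 33 with a change in members above that in ZIC4-negative cells and 30 with one below it. HOXC8 was among them (2.19, adjusted p = 0.0310), and 6 of 26 HOX genes tested passed with a change above that of ZIC4-negative cells and 0 with one below. Of 10 skeletal muscle genes 3 passed with a change below that of ZIC4-negative cells (PAX7, CDH15 and TNNT1) and none with one above, and TNNI1, TNNT2 and MYLPF, which encode contractile proteins, were also among the 30. The skeletal muscle list summed to 1.81 and 1.70 per 10000 UMIs in ZIC4-negative cells at E18 and to 8.72 to 42.0 later, against 2.12 to 3.63 in members throughout, and its part in the relative changes was not tested. Of the 15 genes named for the stage comparison, 2 were called relative to ZIC4-negative cells, HOXC8 and HPGD. The relative log2 difference stayed large with a wide error for HOXC9 (9.34 ± 2.91), ALDH1A1 (11.3 ± 3.73), PENK (7.46 ± 7.66) and CTSL (-4.25 ± 1.17). For these the test could not decide whether the change was shared. By detection, the rise of PENK was not confined to members. Among ZIC4-negative cells its detection grew from 0.952% in E18-ZZ to 10.8% in E28-ZZ, and from 1.58% in E18-DZ to 24.1% in E28-DZ. ALDH1A1 detection in those cells fell from 2.49% to 1.45% between the same ZZ libraries and rose from 0.753% to 8.92% between the DZ ones. For the other genes without a call the relative difference was smaller than the change in members, to an uneven degree. It was -2.18 ± 0.67 against -7.42 for KRT8 and -0.74 ± 0.33 against -5.28 for DSP. More remained for HOXA9 (3.30 ± 1.04 against 6.48), MYH7 (-2.77 ± 0.87 against -5.43) and HOXA7 (2.15 ± 0.46 against 5.42). For these 3 the test could not decide how much of the change was shared.

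HPGD, which degrades prostaglandins, had 1 UMI in E18 members and measured 88.0, 59.7, 107 and 67.3 CPM later (ratio 96.5, counting interval 17.3 to 3810). In ZIC4-negative cells it measured 24.5 and 22.6 CPM at E18 and 34.8 to 53.5 later (relative difference 5.67 ± 0.77, adjusted p = 0.00541). ALDH1A1, a retinaldehyde dehydrogenase, had no UMI at E18 and measured 1.30, 2.12, 179 and 152 CPM later, at least 30.3-fold higher than the floor. The bound was 19.8-fold without E28-ZZ and 19.3-fold without E28-DZ. Both E21 values lay below the floor of 2.59 CPM, so the bound rests on E28. At E16 the gene was detected in 1 of 9 members of ZZ and 1 of 8 of DZ. PENK, the proenkephalin gene, had no UMI at E18 and measured 1.95, 0.847, 27.7 and 192 CPM later, at least 22.0-fold higher (adjusted p = 0.0240 with edgeR and 0.160 with DESeq2). Without E28-DZ its bound was 3.34-fold, and both E21 values lay below the floor of 2.59 CPM. PENK missed the threshold without E18-DZ (adjusted p = 0.508) or E28-DZ (0.0625). For both genes the 2 values of E28 lay far above the 2 of E21. MFAP4, a microfibril-associated glycoprotein, measured 2.65 and 0 CPM at E18 and 24.99, 18.2, 99.9 and 64.5 later.

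The genes that fell were led by epithelial keratins. KRT8 measured 750 and 1025 CPM in E18 members and 7.47, 49.99, 0.495 and 1.59 later (-7.42 ± 0.37, adjusted p = 4.83e-07), and KRT18 measured 225 and 368 and then 2.60, 15.3, 1.48 and 0.398 (-6.69 ± 0.34, adjusted p = 4.83e-07). ZIC4-negative cells went the same way, with KRT8 at 1742 and 1144 CPM at E18 and 4.95 to 213 later. KRT8 was detected in 89.6% and 78.2% of E18 members against 75.7% and 58.2% of ZIC4-negative cells. Its lower level in E18 members thus did not mean that fewer of them carried it. DSP, a desmosomal protein, KRT14, the metallothionein MT1X, the protease CTSL and the slow myosin MYH7 fell as well, with log2 fold changes between -5.75 (CTSL) and -3.86 (KRT14). CTSL and MYH7 were uneven at E18, where CTSL measured 7.95 CPM in ZZ and 163 in DZ, and MYH7 395 and 15.3. CTSL did not pass without E18-DZ (adjusted p = 0.421), nor did MYH7 without E18-ZZ (0.132).

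Of 19 tested matrix genes 15 rose from E18 to the late libraries and none fell, with a list median of 1.32 against 0.03 over all genes. OGN measured 15.9 and 15.3 CPM in E18 members, then 112 and 92.4 in those of E21, and 1074 and 1233 in those of E28 (4.54 ± 0.27, adjusted p = 9.94e-07). COL3A1 measured 827 and 683 CPM at E18 and 1426, 1447, 2169 and 1971 later (1.27 ± 0.16, adjusted p = 0.000278). COL1A1 rose by less (0.83 ± 0.17, adjusted p = 0.00790). All 3 tested epithelial genes fell, and so did 7 of 13 mitosis genes, among them TOP2A (-0.67 ± 0.19, adjusted p = 0.0378, and 0.0612 with DESeq2) and CENPF (-1.01 ± 0.17, adjusted p = 0.00213). Relative to the change in ZIC4-negative cells, COL3A1 alone passed of 20 matrix genes tested (0.51 ± 0.09, adjusted p = 0.0198), and OGN (-0.23 ± 0.27, adjusted p = 0.927) and COL1A1 (-0.09 ± 0.11, adjusted p = 0.841) did not. None of 13 mitosis and 6 epithelial genes passed in that test.

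Of 11 dermomyotome and dorsal dermis genes, PAX3, PAX7, PRTG and LEF1 fell and DKK2 rose. Relative to the change in ZIC4-negative cells PAX3 (-2.84, adjusted p = 0.00443) and PAX7 (-4.11, adjusted p = 0.00443) passed, whereas PRTG (-0.18, adjusted p = 0.823) and DKK2 (-0.53, adjusted p = 0.766) did not. PAX3, which marks the dermomyotome and the dorsal neural tube, measured 37.1 and 71.5 CPM in E18 members, then 10.7 and 5.51 in those of E21, and 3.96 and 0.797 in those of E28. It was detected in 16.7% and 32.7% of E18 members and in at most 3.40% later. LMX1A, a transcription factor of the roof plate and a gene of the neural tube list, measured 18.6 and 57.4 CPM in E18 members and at most 1.30 later (-6.24 ± 0.74, adjusted p = 0.000195). NPY was carried by 0 of the 3 LMX1A+ members of E18-ZZ and by 8 of the 9 of E18-DZ, where 94.1% of all members carried it, and LMX1A lay at 1.34 and 0.611 CPM in ZIC4-negative cells of E18. Relative to those cells the fall was 7.61 ± 1.04 on the log2 scale (adjusted p = 0.00541). The 9 measured neural tube genes summed to 4.43 and 4.40 per 10000 UMIs in E18 members, 3.26 and 3.32 in ZIC4-negative cells, and 3.11 to 3.76 in late members. Their part in the stage differences was not tested.

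The Zic genes did not move as a group. ZIC1 rose (5.28 ± 0.63, adjusted p = 0.000204), while ZIC2 (-0.26 ± 0.19, adjusted p = 0.422) and ZIC5 (-0.65 ± 0.31, adjusted p = 0.200) did not pass the test. Relative to the change in ZIC4-negative cells ZIC1 did not pass either (1.82 ± 1.92, adjusted p = 0.811). ZIC4 itself, which chose the cells, measured 228, 227, 548, 460, 404 and 284 CPM.

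**Figure D4:**
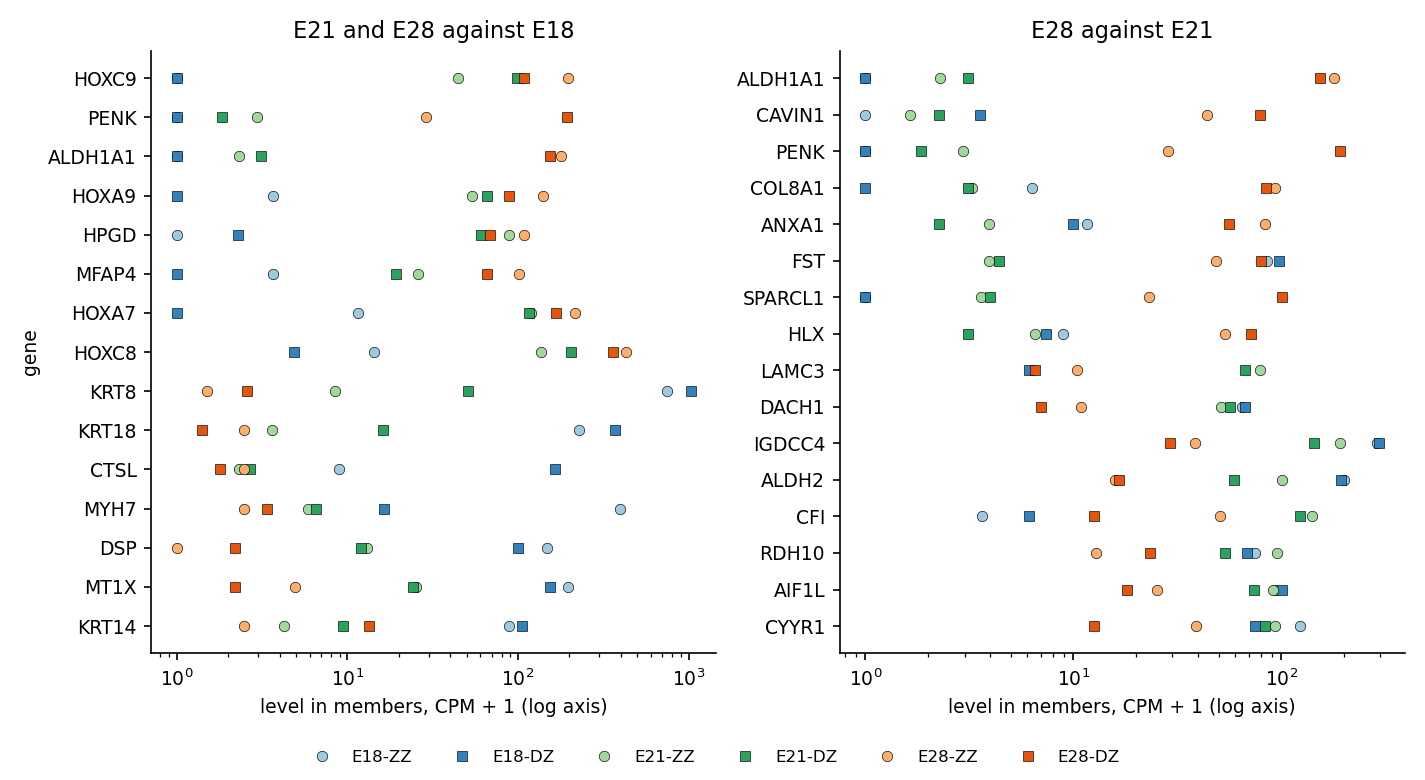
Level in members, as CPM + 1 on a log axis, of the genes named for E21 and E28 against E18 (left) and for E28 against E21 (right), with 1 point for each of the 6 libraries. KRT8 lies at 750 and 1025 CPM at E18 and between 0.495 and 49.99 CPM later, and ALDH1A1 lies at 1.30 and 2.12 CPM at E21 and at 179 and 152 CPM at E28.

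Members of the E21 and E28 libraries differed from each other in 645 of 10350 genes (6.23%), 442 higher at E28 (4.27%) and 203 lower (1.96%). This step was not tested relative to ZIC4-negative cells, so changes shared with them are not set apart. In ZIC4-negative cells, for example, OGN detection rose from 24.6% and 24.9% to 64.4% and 79.6%. PENK detection rose there from 2.36% and 4.22% to 10.8% and 24.1%. In members ALDH1A1 rose by 6.64 ± 0.31 (adjusted p = 9.13e-07). CAVIN1, a caveolar coat protein, measured 0.649 and 1.27 CPM at E21 and 43.0 and 78.1 at E28, and COL8A1 measured 2.27 and 2.12 and then 92.5 and 83.2. PENK (5.92), ANXA1 (5.03), the activin antagonist FST (4.32), SPARCL1 (4.28) and HLX (3.96) completed the genes named as higher at E28. PENK missed the threshold with DESeq2 (adjusted p = 0.0630). LAMC3, a laminin chain, measured 77.9 and 65.7 CPM at E21 and 9.40 and 5.58 at E28 (-3.22 ± 0.25, adjusted p = 1.55e-05). DACH1 (-2.71), IGDCC4 (-2.29), ALDH2 (-2.29), CFI (-2.23), RDH10 (-1.997), AIF1L (-1.94) and CYYR1 (-1.90) were also lower at E28.

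Of 19 matrix genes 11 rose and COL5A2 fell from E21 to E28, and of 6 tendon genes FMOD, THBS2, THBS4, EGR1 and TGFB2 rose and none fell. EGR1, also an immediate early gene, measured 111 and 197 CPM at E21, then 217 in E28-ZZ and 616 in E28-DZ. FOS measured 355 and 608 and then 720 and 2932 (1.73 ± 0.27, adjusted p = 0.00193), and the dissociation and stress list was highest in E28-DZ, at 70.8 per 10000 UMIs. Its part in the rise of EGR1 was not tested. ZIC5 fell (-1.32 ± 0.29, adjusted p = 0.0188), whereas ZIC1 and ZIC2 did not pass. CLDN1 rose (2.67 ± 0.34, adjusted p = 0.000775) from 3.25 and 8.47 CPM to 29.7 and 39.4. NPY1R, which encodes a receptor for neuropeptide Y, rose too (2.49 ± 0.55, adjusted p = 0.0183), from 3.57 and 1.27 CPM to 9.89 and 18.7. With DESeq2 the calls of NPY1R (adjusted p = 0.204), ZIC5 (0.151) and TGFB2 (0.947) were lost, and 205 genes passed in place of 645. Without E21-DZ 364 genes passed and without E28-ZZ 1016. Of 12 retinoic acid genes tested ALDH1A1 rose and 3 fell, STRA6 and RDH10 among them. The HOX genes of paralogue group 10 differed between the libraries of E28, at a summed 173 CPM in ZZ members and 3.19 in DZ members, and at 149.05 and 2.39 in ZIC4-negative cells.

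Between breeds 18 of 10350 genes passed with stage as a block (0.174%), 16 higher in DZ (0.155%) and 2 lower (0.0193%). The highest were the immediate early genes ATF3, NR4A1, MAFF, FOSB and KLF4. ATF3 measured 15.9, 7.47 and 8.91 CPM in the ZZ libraries of E18, E21 and E28 and 19.1, 88.1 and 115 in the DZ libraries (3.33 ± 0.36, adjusted p = 0.00332). FOSB measured 7.95, 45.1 and 64.8 CPM in ZZ and 24.3, 285 and 378 in DZ (2.59 ± 0.18, adjusted p = 3.75e-05). With DESeq2 FOSB (adjusted p = 1.23e-14) and KLF4 (0.00623) passed, whereas ATF3 (1.00), NR4A1 (0.182), MAFF (0.0846), NELL2 (0.684) and KIF22 (0.661) did not. FOSB was also higher in DZ in ZIC4-negative cells, at 13.0, 60.4 and 63.7 CPM in ZZ and 50.1, 295 and 382 in DZ. Relative to those cells the difference was 0.03 ± 0.24 for FOSB, 0.58 ± 0.32 for ATF3 and 1.54 ± 0.44 for NR4A1. It was 0.33 ± 0.32 for MAFF, 0.36 ± 0.28 for KLF4, -0.93 ± 0.39 for NELL2 and -0.08 ± 0.17 for KIF22. The lower genes were NELL2 (-1.27 ± 0.21, adjusted p = 0.0368) and KIF22 (-1.004 ± 0.18, adjusted p = 0.04995). NELL2 missed the threshold without E18-ZZ, E28-ZZ or E28-DZ (adjusted p 0.0604 to 0.212) and KIF22 without E18-ZZ (0.0921). With doublets removed the calls of NR4A1 (0.0602), NELL2 (0.0602) and KIF22 (0.208) were lost, and with at least 2 ZIC4 UMIs those of KLF4 (0.102), MAFF (0.0578), NELL2 (0.322) and KIF22 (0.314). NR4A1 was not tested in the latter fit. The count of genes passed was 21 to 87 when 1 library was left out, and 42 or more without any library other than E18-ZZ. Relative to the ZIC4-negative cells 0 genes passed in edgeR's test, and 262 of 12800 had an unadjusted p under 0.05. The dissociation and stress list summed to 70.8 per 10000 UMIs in E28-DZ members and 20.9 to 29.5 in the other 5 libraries, against 68.4 and 21.7 to 28.5 in ZIC4-negative cells. Its part in the breed differences was not tested. ZIC1, ZIC2 and ZIC5 did not pass between breeds (ZIC2 -0.55 ± 0.18, adjusted p = 0.510).

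Finally the members were split by the gene that had let them in. In the 4 libraries of E21 and E28, 507 members with CLDN11 alone were set against 452 with MAB21L2 alone. Of 7330 genes 112 passed (1.53%), 76 higher in CLDN11-only cells (1.04%) and 36 higher in MAB21L2-only cells (0.491%). Without E28-ZZ 36 genes passed and without E28-DZ 43. Values follow by stage, ZZ before DZ.

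Several matrix genes were higher in CLDN11-only cells. LUM measured 267, 238, 764 and 442 CPM in them and 23.9, 114, 253 and 153 in MAB21L2-only cells (1.64 ± 0.18, adjusted p = 3.98e-05). COL3A1 measured 2515, 2068, 2926 and 2723 CPM against 806, 1083, 1864 and 1532 (0.99 ± 0.11, adjusted p = 3.98e-05). Both differences held in all 4 libraries. Of 19 matrix genes 7 were higher in CLDN11-only cells (COL1A1, COL3A1, COL5A2, COL12A1, DCN, LUM and VIM) and none was lower, with a list median of 0.50 against -0.000371 over all genes tested. RGS4, a regulator of G-protein signalling, measured 101, 86.7, 3.14 and 26.5 CPM against 19.95, 8.53, 0 and 0 (3.23 ± 0.44, adjusted p = 0.000301). LAMC3 measured 259, 188, 17.3 and 2.74 CPM against 39.9, 25.6, 6.00 and 1.39 (2.55 ± 0.29, adjusted p = 4.34e-05). COL14A1 (2.19), CFI (1.96), EFEMP1 (1.76), SELENOP (1.69) and TGFBR3 (1.63, adjusted p = 0.0758 without E28-DZ) were higher in CLDN11-only cells as well.

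MAB21L2-only cells carried more ALDH1A1, which measured 12.0, 8.53, 385 and 358 CPM in them and 0, 0, 84.7 and 72.2 in CLDN11-only cells (-2.28 ± 0.18, adjusted p = 8.55e-07). UPP1, a uridine phosphorylase, measured 71.8, 102, 69.0 and 76.3 CPM against 20.2, 16.9, 14.1 and 20.1 (-2.12 ± 0.23, adjusted p = 3.98e-05). SHISA3 (-1.39), GRIN3A (-1.26), ACTC1 (-1.22), ATP8A1 (-1.20) and PCDH17 (-1.20) were on the same side. Without E28-ZZ the calls of SHISA3 (adjusted p = 0.0574), GRIN3A (0.0799) and ACTC1 (0.542) were lost, without E28-DZ those of GRIN3A (0.264) and PCDH17 (0.370), and without E21-DZ that of PCDH17 (0.0530). DESeq2 gave an adjusted p for 11 of the named genes, of which 9 passed and ACTC1 (0.9999) and PCDH17 (0.386) did not. RGS4, COL14A1, TGFBR3 and GRIN3A got no adjusted p there, so their calls rest on edgeR alone. COL1A1 (0.145) did not pass with DESeq2 either. ZIC2 (0.22 ± 0.13, adjusted p = 0.605), ZIC1 (-0.34 ± 0.27, adjusted p = 0.771) and ZIC5 (-0.18 ± 0.32, adjusted p = 0.931) did not pass the test. The embryonic globin HBE1 was higher in CLDN11-only cells (1.49 ± 0.26, adjusted p = 0.00425), and its part in the other differences was not tested. NPY-only cells reached 20 cells in 2 libraries that also held the other subsets, so no test of them was made.

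**Figure D5:**
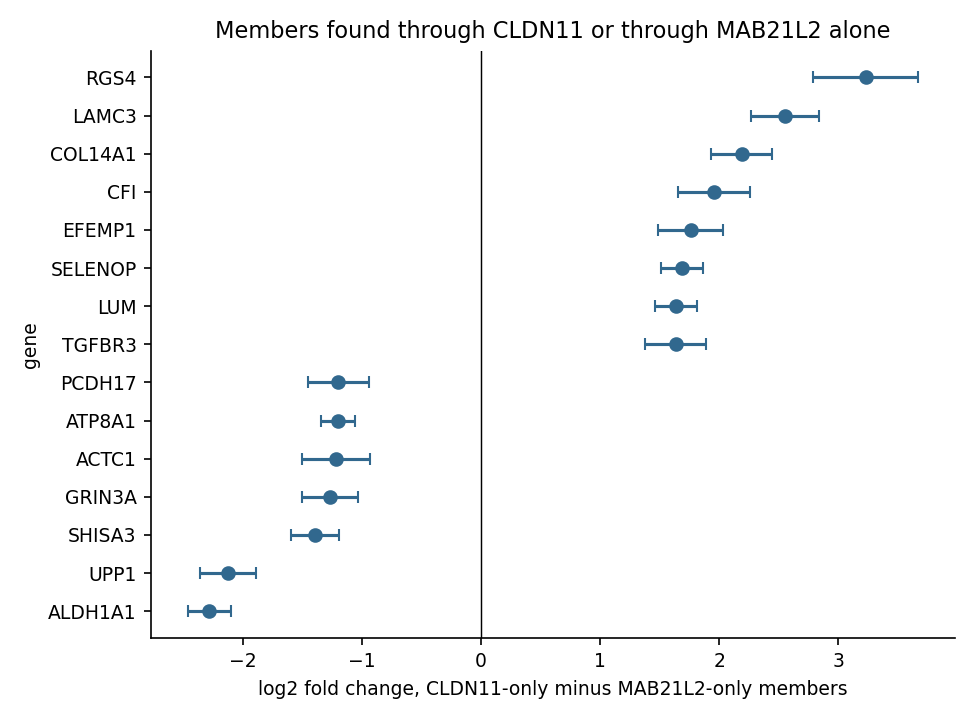
Log2 fold change of the named genes between CLDN11-only and MAB21L2-only members over 4 libraries, positive where CLDN11-only cells are higher, with the SE of the fit as bars. RGS4 lies farthest to the CLDN11-only side at 3.23 and ALDH1A1 farthest to the MAB21L2-only side at -2.28.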

How the data were processed

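Dissociated embryonic tissue was profiled with 10x Genomics 3' v3 chemistry. The deposited matrices hold UMI counts that the authors obtained with Cell Ranger, version 3.1.0 for E16 and 3.0.2 for the other stages per the labels, on Sscrofa11.1 with no normalization. They list 21301 genes, of which 14846 carried a symbol in the files and 680 more were named from RefSeq identifiers. Barcodes were kept with at least 200 genes, at most 30000 UMIs and at most 10% of UMIs on 13 mitochondrial genes. The authors' cell annotation was not used here, and doublets stayed in the main analysis, with Scrublet calls at 0.8% per 1000 barcodes removed as an alternative. Shares were tested with exact permutation over libraries (scipy 1.17.1). Counts were summed per library and cell group, with at least 20 cells, and tested with edgeR 4.0.16 in R 4.3.3 (TMM, filterByExpr, quasi-likelihood test, Benjamini-Hochberg over all genes tested), with DESeq2 1.42.0 as an alternative. CPM are of these sums, with TMM scaling. Stage comparisons had breed as a term, and breed comparisons had stage. The depth of 377201 to 3025414 UMIs per sum of members limits what can be seen for genes of a few CPM.

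The members and the gene lists were chosen with earlier results of these data known. Named genes were the 15 highest and 10 lowest (against ZIC4-negative cells), the 8 highest and 8 lowest (stages and subsets) or the 5 highest and 5 lowest (breeds) by log2 fold change with adjusted p below 0.05, of which all but the breed genes also needed a mean of 50 CPM in the higher group and the same direction in every library or groups that did not overlap. All genes of the ZIC, claudin and NPY lists and up to 4 of each other list were added, and other genes were named after their values were seen. Some genes that the rule or lists gave are not reported here. Scripts were tested on simulated data. Alternatives are described with their effect in the results and in the closing section.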

Additional observations from a re-analysis of the deposited data

Results flagged for a closer look

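In 41 groups of 4 to 10 samples checked for a library that stood apart from the rest, 4 were marked, and chance alone marks about 1 in 20. The log2 difference of ZIC2 between members and ZIC4-negative cells was 0.74 in E28-DZ, apart from the other 5 libraries. PENK stood at 192 CPM in E28-DZ members, apart from the other 3 late libraries. KRT8 at 49.99 CPM and KRT18 at 15.3 CPM stood apart in E21-DZ members.

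For 2 of the genes named against ZIC4-negative cells, the difference between members and ZIC4-negative cells differed between the E18 libraries and the late ones in the test of that change, which HOXC8 and HPGD of the genes named for the stages passed as well. The MSX1 difference was larger over the late libraries by 3.17 ± 0.49 on the log2 scale (edgeR, adjusted p = 0.0109). By library, as log2(CPM + 1), it was 1.42 and 1.90 at E18, 4.61 and 3.57 at E21, and 5.60 in E28-ZZ but 1.80 in E28-DZ. In E28-DZ MSX1 measured only 2.79 CPM in members, so the added 1 shrinks the difference there. It was detected in 0.967% of these members against 0.0327% of ZIC4-negative cells, too few to rank E28-DZ against E18. For LOXL1, which encodes a lysyl oxidase that crosslinks elastin, the late difference minus the E18 difference was -1.89 ± 0.26 (adjusted p = 0.00541). LOXL1 measured 254 and 231 CPM in E18 members against 38.2 and 46.5 in ZIC4-negative cells, and 64.1 against 63.3 in E28-DZ.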

How the results depend on the processing

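The share of members kept its direction in every alternative. It was 2.15 percentage points with at least 2 ZIC4 UMIs, 2.38 after thinning, 4.60 without the E28 libraries and 3.81 without the E16 libraries, where the smallest possible p was 0.133, and 3.69 to 4.34 with each library left out (p = 0.0571, the smallest possible, exact permutation). Against ZIC4-negative cells 893 genes passed, 632 with DESeq2, 636 after thinning, 471 at a mitochondrial limit of 5%, 23 with no library block, 296 against LUM+ cells, 544 against PAX1+ cells and 439 to 936 with each library left out. Members against PAX1+ cells turned positive for KRT8 (0.74), KRT18 (0.42), DCN (0.18) and APOA1 (0.95). Late against early gave 546 genes with DESeq2, 603 at the 5% limit, 655 with at least 2 ZIC4 UMIs, 63 relative to ZIC4-negative cells and 333 to 1714 with each library left out. E28 against E21 gave 205 genes with DESeq2, 1107 with no filter, 343 with at least 2 ZIC4 UMIs and 364 to 1016 with each library left out. DZ against ZZ gave 6 genes with DESeq2, 123 with no filter, 118 at the 5% limit, 4 with at least 2 ZIC4 UMIs, 0 without the stage block (141 at an unadjusted p under 0.05), 0 relative to ZIC4-negative cells and 21 to 87 with each library left out. Between subsets, the genes higher in CLDN11-only cells numbered 20 with DESeq2 and 27 to 88 with each library left out, and those higher in MAB21L2-only cells 10 and 9 to 61. With doublets removed 794 genes passed against ZIC4-negative cells, where KRT8 (adjusted p = 0.0649), DCN (0.0503) and APOA1 (0.0732) lost their calls, 1080 for late against early, 603 for E28 against E21 and 13 for DZ against ZZ. The causes were not tested. Fits with fewer genes or samples differ by construction. A minimum of 10 cells gave the same libraries as 20. The alternatives without E18 libraries, relative to ZIC4-negative cells, for E28 against E21 and for subsets were chosen after seeing the data. No paired analysis was possible by replicate number because each stage and breed had 1 library, and pairing by stage or by library is part of the tests given above. Each E16 library held fewer than 20 members and entered the test of shares only.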

Other observations

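Other genes also changed differently in members and in ZIC4-negative cells from E18 to the late libraries, and those given here were chosen after their values were seen. ROBO1, a receptor for Slit guidance proteins, measured 47.7 and 46.0 CPM in E18 members and 206, 263, 290 and 207 later. UNC5C, a netrin receptor, measured 26.5 and 20.4 CPM at E18 and 37.4 to 78.0 later, and the homeobox gene PRRX2 measured 13.3 and 11.5 CPM at E18 and 23.5 to 96.6 later. HOXA5 rose from 42.4 and 15.3 CPM to 331 to 429, and HOXC6 from 21.2 and 5.11 to 144 to 239. PAX7 and CDH15, both genes of muscle progenitors, lay on the other side with contractile genes such as TNNT1 and TNNI1. PAX7 measured 7.95 and 30.6 CPM in E18 members and at most 6.49 later, while ZIC4-negative cells went from 3.25 and 5.31 CPM to between 13.5 and 27.6.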
